A study of Mus musculus with 12 samples.

Results

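The 9 genes described here act in or on transforming growth factor beta (TGF-beta) signalling: Tgfb1, Furin, Tgfbr1, Smad7, Ldlrad4, Ski, Skil, Tgif1 and Tgif2. They are 9 of the 18601 genes in the count matrix, and they were selected on measured values of these libraries. Which values were used is not recorded beyond that, and they are taken here to be levels in gut and spleen, so those levels are given as a description, with no test. Single-cell 3′ libraries had been made from CD4 T cells of mice that received Th1 cells, helper T cells that make interferon gamma. The transferred cells were either control (Il23rwt/eGFP) or KO (Il23reGFP/eGFP), so both carried a green fluorescent reporter allele at the interleukin-23 receptor gene and the KO cells had no wild-type copy. Spleen and colon lamina propria (colon LP, the connective tissue under the gut lining) had 2 libraries for each genotype, numbered replicate 1 and replicate 2. Small intestinal lamina propria (SI LP) and colon epithelium (T cells of the lining itself, which the series design calls intraepithelial lymphocytes) had 1 library for each genotype, all replicate 2. The age and strain of the recipients, and whether each library came from a separate mouse, are not given in the sources used here, so p-values measure the spread between these libraries, which may be technical.

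TGF-beta is made as an inactive precursor, which convertases such as furin cut and integrins later release. The active ligand brings together a type II and a type I receptor kinase, which phosphorylate SMAD2 and SMAD3, and these enter the nucleus with SMAD4. Many of the genes that the pathway switches on hold it back in turn, at the receptor or at the DNA. In gut T cells TGF-beta is known for restraining inflammation and for inducing integrin CD103, encoded by Itgae, which tethers T cells to the epithelium.

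Levels were taken over CD3-positive cells, those with 3 or more unique molecular identifiers (UMIs, counts of captured transcripts) of Cd3d, Cd3e and Cd3g together. These were 29623 of 32763 cells, with 1902990 to 13248318 UMIs and a median depth of 2273 to 5690 UMIs per cell by library. They are given as CPM, UMIs of the gene scaled to the same total in each library. Cd4 measured 199 to 386 CPM and Cd8a 0.0758 to 18.3 CPM. The SI LP KO library stood apart: 50.6% of its cells were CD3-positive, against 77.9% to 98.4% in the other 11, and it held 813 such cells. Of the cell barcodes, 677 occurred in more than 1 library. Spleens were mashed and their red cells lysed, whereas gut cells came from a tissue dissociation kit, so tissue and isolation method cannot be told apart. Levels were summed over the cells of a library, and in such sums fewer cells that express a gene and less RNA per cell cannot be told apart.

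On the ligand side, Tgfb1 (ENSMUSG00000002603, chr7:25687002-25705077, plus strand, build mm10), the TGF-beta form that lymphocytes make, measured 169.5, 176, 175 and 186 CPM in spleen (control 1, KO 1, control 2, KO 2). Colon LP gave 326, 321, 277 and 326 CPM in the same order, SI LP 245 and 172 CPM (control, KO), and colon epithelium 293 and 234 CPM. All 4 colon LP libraries lay above all 4 spleen libraries, but the SI LP KO library fell inside the spleen range. Ordered by mean, colon LP came before epithelium, SI LP and spleen, and the ranges of neighbours in that order overlapped.

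Furin (ENSMUSG00000030530, chr7:80388585-80405436, minus strand), the convertase, measured 63.3, 44.3, 57.9 and 40.9 CPM in spleen. In colon LP it measured 689.5, 739, 638 and 854 CPM, in SI LP 624.7 and 933 CPM, and in epithelium 419 and 392 CPM. No gut library overlapped the spleen range, and the lowest gut value, 392 CPM, was in the KO epithelium. The mean in colon LP was 14.1 times that of spleen and 1.80 times that of the epithelium. SI LP and colon LP overlapped. Because Furin moved with most of the set, its start regions are shown for the letters of known pathway factors. RefSeq (build GRCm38.p6) gives 2 windows, each from 250 bases before to 50 after a start, at chr7:80405387-80405686 and chr7:80402763-80403062, minus strand. Capitals mark CAGAC, the core that SMAD3 and SMAD4 bind, and TGTCA, the core of TGIF sites, on either strand (GTCTG and TGACA on the other). No 2 matches overlapped.
Furin upstream start: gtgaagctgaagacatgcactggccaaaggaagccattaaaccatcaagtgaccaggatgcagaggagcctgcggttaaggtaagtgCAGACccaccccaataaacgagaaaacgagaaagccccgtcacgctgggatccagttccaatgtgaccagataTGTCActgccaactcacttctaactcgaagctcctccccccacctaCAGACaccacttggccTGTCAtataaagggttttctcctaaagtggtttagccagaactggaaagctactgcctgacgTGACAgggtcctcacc
Furin inner start: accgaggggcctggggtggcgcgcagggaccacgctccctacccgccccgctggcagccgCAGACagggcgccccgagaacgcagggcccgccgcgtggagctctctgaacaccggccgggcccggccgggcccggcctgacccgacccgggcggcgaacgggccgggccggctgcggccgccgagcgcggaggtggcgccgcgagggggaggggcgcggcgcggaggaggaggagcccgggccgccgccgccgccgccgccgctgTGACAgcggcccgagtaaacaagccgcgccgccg
The upstream window held 2 CAGAC and 3 TGTCA matches, and the inner window 1 of each. Of all 32851 windows of 300 bases, 49.6% held CAGAC and 45.4% TGTCA, so such matches are common.

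Tgfbr1 (ENSMUSG00000007613, chr4:47353222-47414931, plus strand) encodes the type I receptor kinase. It measured 15.9, 13.2, 19.6 and 15.7 CPM in spleen, 10.9, 9.36, 4.50 and 9.53 CPM in colon LP, 6.98 and 7.36 CPM in SI LP, and 16.8 and 25.1 CPM in epithelium. It was the only member whose mean was lower in colon LP than in spleen (0.533 times), with no overlap of those 8 libraries. Its counts were low, 14 to 239 UMIs per library, and the 14 UMIs of the SI LP KO library have an exact Poisson 95% interval of 4.02 to 12.3 CPM (counting error only). Epithelium and spleen overlapped.

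At the receptor, 2 inhibitors were measured. Smad7 (ENSMUSG00000025880, chromosome 18), the inhibitory SMAD that brings ubiquitin ligases to the type I receptor, ran from 22.4 to 32.4 CPM in spleen. It measured 93.2, 90.3, 77.5 and 99.01 CPM in colon LP, 83.5 and 108 CPM in SI LP, and 76.9 and 69.9 CPM in epithelium. Every gut library exceeded every spleen library.

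Ldlrad4 (ENSMUSG00000024544, chromosome 18), a membrane protein that keeps SMAD2 and SMAD3 from the receptor, measured 6.56, 5.14, 5.27 and 5.15 CPM in spleen. Colon LP gave 61.5, 52.5, 55.6 and 63.6 CPM, SI LP 59.8 and 71.5 CPM, and epithelium 51.3 and 42.8 CPM. Gut and spleen did not overlap, and the colon LP mean was 10.5 times that of spleen. For both inhibitors the epithelial libraries were the lowest of the gut, and SI LP and colon LP overlapped.

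At the DNA, 4 corepressors were measured. Ski (ENSMUSG00000029050, chr4:155154075-155222592, minus strand), the SKI protein that binds SMADs and recruits histone deacetylases, differed least among tissues. It ran from 22.6 to 26.8 CPM in spleen, 25.1 to 36.4 CPM in colon LP, 28.9 and 31.0 CPM in SI LP, and 32.9 and 39.8 CPM in epithelium, and colon LP overlapped spleen. Skil (ENSMUSG00000027660, chr3:31095058-31122577, plus strand), encoding its relative SnoN, measured 12.4, 11.5, 19.4 and 16.7 CPM in spleen. It measured 154, 132, 158 and 233 CPM in colon LP, 194 and 226 CPM in SI LP, and 110.1 and 99.3 CPM in epithelium. The colon LP mean of Skil was 11.3 times that of spleen, with all 8 gut libraries above all 4 spleen libraries.

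Tgif1 and Tgif2 encode homeodomain proteins that bind DNA and hold SMAD complexes in a repressed state. Tgif1 (ENSMUSG00000047407, chr17:70844205-70853546, minus strand) measured 8.37, 12.2, 13.9 and 17.6 CPM in spleen and 249, 198, 254 and 356 CPM in colon LP. It measured 264 and 269 CPM in SI LP, but 36.6 and 26.6 CPM in epithelium. The colon LP mean was 20.3 times that of spleen, and the epithelial mean 2.42 times. Tgif2 (ENSMUSG00000062175, chr2:156840007-156855570, plus strand) had the same order of tissues. It measured 3.63, 5.14, 5.77 and 5.46 CPM in spleen, 37.1, 37.1, 45.7 and 65.1 CPM in colon LP, 41.4 and 53.6 CPM in SI LP, and 8.21 and 8.07 CPM in epithelium. For both genes the epithelial libraries lay between spleen and lamina propria and overlapped neither.

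Since Tgif1 and Tgif2 moved together, the start of Tgif2 (chr2:156839757-156840056, plus strand) is set beside the 2 outermost of the 5 Tgif1 starts in RefSeq (chr17:70853483-70853782 and chr17:70851685-70851984, minus strand, build GRCm38.p6), with the same letters in capitals.
Tgif2 start: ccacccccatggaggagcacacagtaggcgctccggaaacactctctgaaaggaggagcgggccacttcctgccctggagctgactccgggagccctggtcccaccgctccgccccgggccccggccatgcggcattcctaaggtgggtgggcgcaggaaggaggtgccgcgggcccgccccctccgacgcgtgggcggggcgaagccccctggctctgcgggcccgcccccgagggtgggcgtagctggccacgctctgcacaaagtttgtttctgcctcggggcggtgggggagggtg
Tgif1 outermost start: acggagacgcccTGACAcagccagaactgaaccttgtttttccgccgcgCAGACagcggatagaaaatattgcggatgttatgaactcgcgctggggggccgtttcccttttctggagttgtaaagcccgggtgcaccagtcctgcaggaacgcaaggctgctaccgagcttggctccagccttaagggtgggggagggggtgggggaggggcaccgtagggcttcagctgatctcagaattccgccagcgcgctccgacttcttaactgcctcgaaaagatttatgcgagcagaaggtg
Tgif1 next start: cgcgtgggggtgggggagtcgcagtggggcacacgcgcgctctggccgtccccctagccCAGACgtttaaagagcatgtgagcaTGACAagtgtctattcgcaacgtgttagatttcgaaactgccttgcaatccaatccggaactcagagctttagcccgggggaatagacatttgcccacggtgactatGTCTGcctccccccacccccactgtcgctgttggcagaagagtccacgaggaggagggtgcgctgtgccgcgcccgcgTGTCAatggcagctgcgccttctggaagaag
The outermost Tgif1 window held 1 CAGAC and 1 TGTCA match, the next one 2 of each, and the Tgif2 window had neither. Over the 12 windows of the 6 members in the RefSeq table, 6 held CAGAC and 7 TGTCA. The SMAD palindrome GTCTAGAC, the AP-1 site TGACTCA and the cyclic AMP element TGACGTCA were in none of the 12, against 0.213%, 5.20% and 1.79% of all windows.

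**Figure D1:**
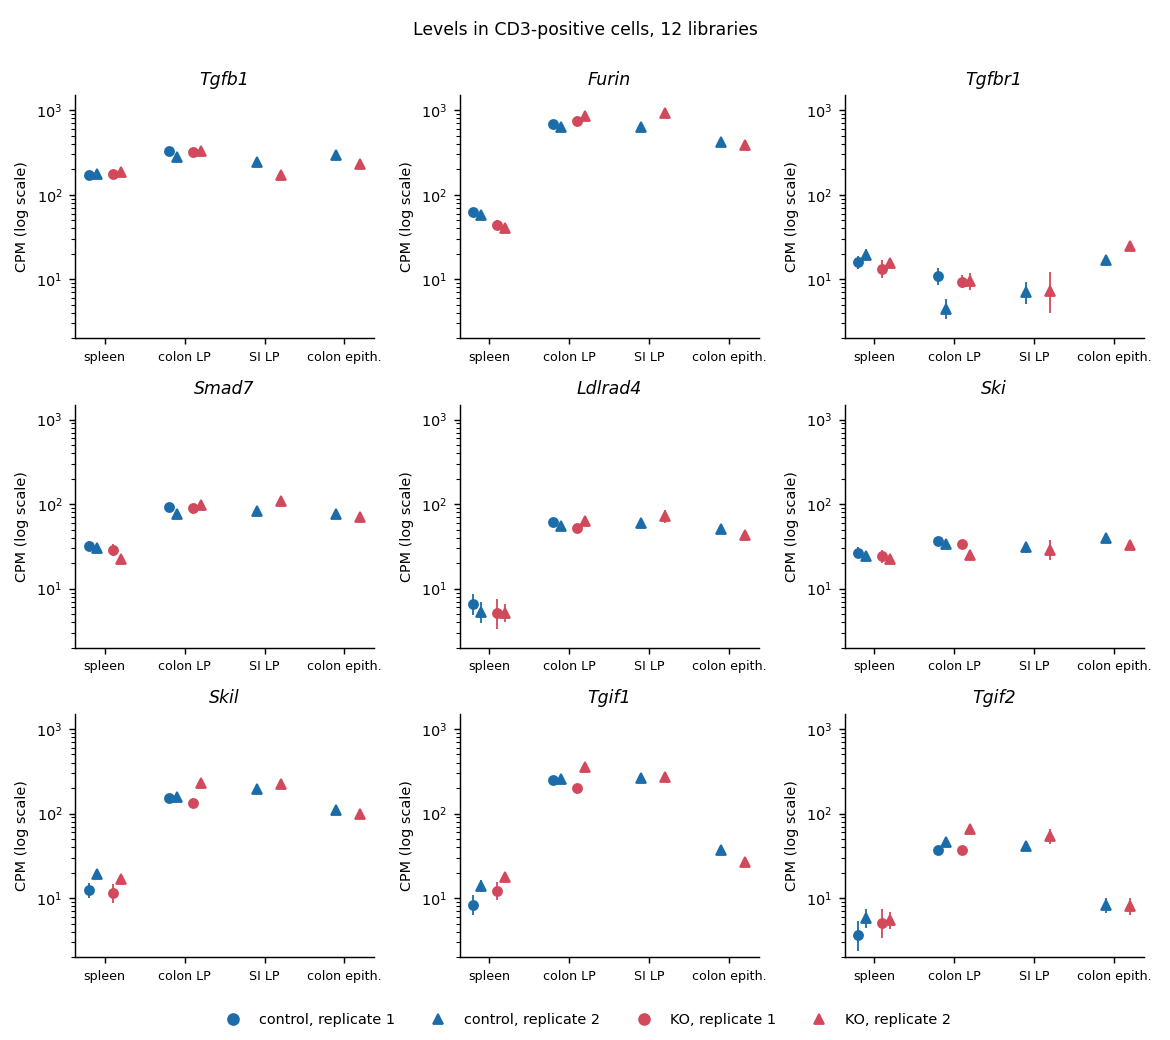
Level of each gene (CPM on a log axis; bars are exact Poisson 95% intervals) in CD3-positive cells of the 12 libraries, by tissue, genotype and replicate. Furin, Smad7, Ldlrad4, Skil, Tgif1 and Tgif2 were higher in all 8 gut libraries than in all 4 spleen libraries, and Tgif1 and Tgif2 dropped between lamina propria and colon epithelium. The share of all genes separated in this way was not counted.

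Fitted over the 8 libraries of both tissues, the log2 difference of colon LP minus spleen was 4.60 for Tgif1, 4.10 for Furin, 3.74 for Skil, 3.66 for Ldlrad4 and 3.44 for Tgif2. It was 1.94 for Smad7, 1.09 for Tgfb1, 0.66 for Ski and -0.64 for Tgfbr1. As these values may have chosen the members, no test of them is given. How many of all genes lay higher in every gut library than in every spleen library was not counted. Over all genes, the quasi-likelihood test of edgeR passed 3262 of 10976 (29.7%), 16.6% higher and 13.1% lower in colon LP. The median of the 9 members was 3.44 and that of all genes -0.0014.

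Other measures moved with tissue beside these levels. Of 17 early response and dissociation genes, 12 passed as higher in colon LP and 0 as lower, and their summed level was 2850 to 4425 CPM in spleen, 4997 to 16245 CPM in colon LP, 5622 and 13725 CPM in SI LP, and 4964 and 8505 CPM in epithelium. Levels were also taken without the cells that had any UMI of 8 such genes (Fos, Fosb, Egr1, Atf3, Hspa1a, Hspa1b, Dnajb1, Nr4a1). Of the CD3-positive cells 9895 stayed, 65 to 2722 per library, with 2722 of 3661 in spleen control 2 and 265 of 2739 in colon LP KO 1. Furin then measured 590.2 to 798 CPM in colon LP and 35.0 to 67.7 CPM in spleen, Tgif1 183 to 322 CPM and 5.91 to 18.3 CPM, and the fitted differences were 3.95 and 4.31. Summed markers of regulatory T cells (5 genes, Foxp3 among them) were 199 to 244 CPM in spleen, 955 to 1556 CPM in colon LP, 782 and 946 CPM in SI LP, and 363 and 372 CPM in epithelium. Foxp3 itself was near 0, with 0.162 to 4.94 CPM in all 12 libraries. Summed macrophage markers were 33.5 to 276 CPM in spleen, 28.8 to 61.1 CPM in colon LP, 8.45 and 41.0 CPM in SI LP and 5.71 and 72.5 CPM in epithelium. The part of early response genes, regulatory T cell markers and macrophage markers in these levels was not tested. The choice of cells used only 8 of the 17 early response genes, so it cannot tell a dissociation response from tissue.

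Colon epithelium against colon LP set T cells of the lining beside those beneath it, in a fit over all 12 libraries with tissue and genotype as terms. Of the 9 members 6 fell and 0 rose by edgeR, while 2188 of 11305 genes (19.4%) passed, 10.8% lower and 8.52% higher. The member median was -0.60 and that of all genes 0.04. Colon LP, the reference here, may have helped to choose the members, which favours lower values elsewhere, so nothing is read from this count or median, and the p-values below carry the same limit. Tgif1 fell by 3.32 ± 0.29 on the log2 scale (SE, adjusted p = 0.000158), a fitted 9.99-fold drop. Tgif2 fell by 2.76 ± 0.23 (adjusted p = 7.93e-05), a fitted 6.76-fold drop. Both calls were kept in each fit that left out a library, with adjusted p up to 0.00515 and 0.00534, and in the fit on replicate 2 libraries alone (-3.44 and -2.93).

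The other changes in the epithelium were smaller. Furin fell by 1.13 ± 0.24 (adjusted p = 0.00923) and Skil by 0.96 ± 0.23 (0.0143). Each call was lost without the epithelial control library (-1.23, adjusted p = 0.0575, and -1.12, adjusted p = 0.0622) or the epithelial KO library (-1.04, 0.141, and -0.82, 0.198). Furin was also lost on replicate 2 libraries alone (-1.06, adjusted p = 0.0615). Skil was also lost in the cells with no UMI of the 8 early response genes (-0.89, adjusted p = 0.124), where Furin was kept (-1.21, 0.00343). Ldlrad4 fell by 0.60 ± 0.17 (adjusted p = 0.0332) and Tgfb1 by 0.54 ± 0.17 (0.0488). With the replicate number as a block both calls ended (-0.50, adjusted p = 0.0630, and -0.46, adjusted p = 0.0913), as they did on replicate 2 libraries alone (-0.52, 0.0733, and -0.40, 0.222) and in the cells with no early response UMI (-0.48, 0.197, and -0.61, 0.0593). The Ldlrad4 call also ended in 5 of 12 fits that left out a library: the epithelial control (-0.76) or KO (-0.44), colon LP control 1 (-0.53), KO 1 (-0.61) or KO 2 (-0.56), with adjusted p of 0.0568 to 0.334. The Tgfb1 call ended in 10 of 12, all but those without colon LP control 2 or SI LP KO, with differences of -0.73 to -0.37 and adjusted p up to 0.412. It also ended over all cells (0.108) and with a minimum of 1 CD3 UMI (0.0692).

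The remaining 3 members did not pass. Smad7 gave -0.58 ± 0.20 (adjusted p = 0.0648, but 0.0203 without colon LP control 2, 0.0489 without spleen KO 2, 0.0348 with DESeq2 and 0.0407 with no filter on low counts), and Ski -0.12 ± 0.18 (0.651), which turned to 0.06 with the block. Tgfbr1 lay on the other side, at 0.98 ± 0.32 (adjusted p = 0.0501). With the block it passed as higher in the epithelium (1.13 ± 0.35, adjusted p = 0.0492), as it did without colon LP control 1 (1.21, 0.0242) or control 2 (0.73, 0.0301), on replicate 2 libraries alone (1.41, 0.0296), with DESeq2 (0.0462), with no filter (0.0350) and with a minimum of 5 CD3 UMIs (0.0471). Of the 17 early response genes 5 passed as lower in the epithelium and 0 as higher. Epithelial cell markers summed to 35.9 CPM in the control and 1187 CPM in the KO epithelial library, against 10.5 to 138 CPM in colon LP, while Tgif1 in the epithelial KO library was 0.728 times its control. All epithelial libraries were replicate 2.

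**Figure D2:**
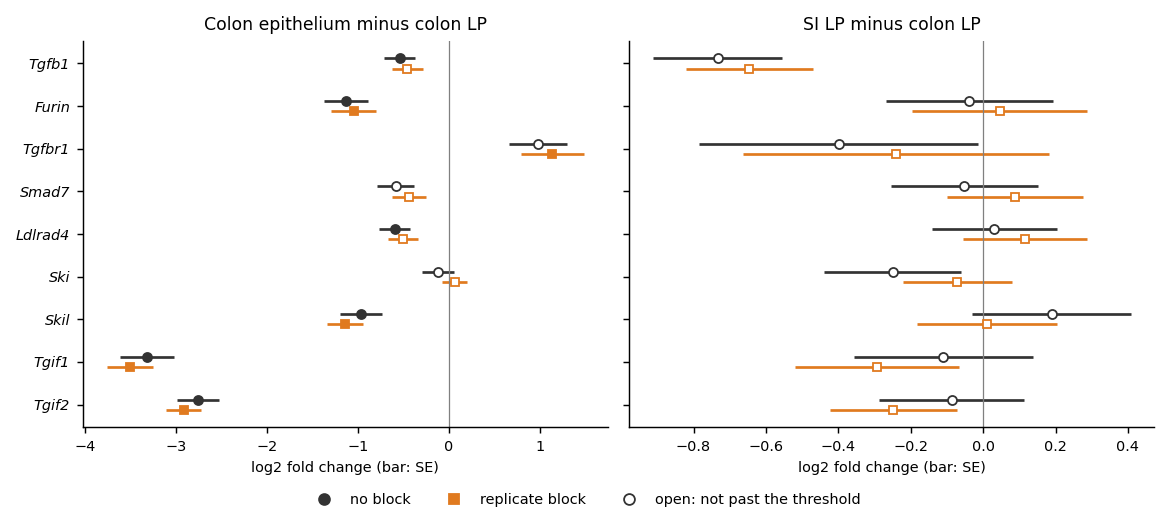
Log2 fold change of each member in colon epithelium (left) and SI LP (right) against colon LP, with SE, fitted without (circles) and with (squares) the replicate number as a block; filled symbols passed at an adjusted p under 0.05. Tgif1 and Tgif2 lay at -3.32 and -2.76 in the epithelium, and no member passed in SI LP.

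SI LP against colon LP set the lamina propria of both gut segments side by side. None of the 9 members passed by edgeR, and 1 of 11305 genes did (0.00885%), with 1279 genes and 1 member at an unadjusted p under 0.05. The member was Tgfb1, lower in SI LP by 0.73 ± 0.18 on the log2 scale (adjusted p = 0.283). It passed with DESeq2 (-0.75, adjusted p = 0.0203), which called 103 genes, and without colon LP control 2 (-0.85, 0.0457), and it gave -0.54 without the SI LP KO library. The highest member was Skil, at 0.19 ± 0.22. Tgif1 gave -0.11 ± 0.25 and Furin -0.04 ± 0.23.

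Of the other genes of the pathway, 52 in 5 lists, all were in the matrix and 37 were tested. Their counts stand beside 16.6% of all genes higher and 13.1% lower in colon LP than in spleen, and 8.52% higher and 10.8% lower in epithelium than in colon LP. The lists hold 5 to 12 tested genes each and were chosen with earlier results of these data known. Nothing about a list is therefore read from its counts. On the ligand side 2 of 5 tested genes were higher and 1 lower in colon LP than in spleen. Itgav, an integrin chain that releases active TGF-beta, rose by 2.22 ± 0.24 and Nrros, a cell-surface anchor of the latent ligand, fell by 1.03 ± 0.22. Lrrc32, the anchor GARP of regulatory T cells, was at 0 in all spleen and epithelial libraries and reached 2.56 CPM in colon LP. In the epithelium 2 were lower and 0 higher than in colon LP, Itgav by 1.29 ± 0.24 and Lrrc32.

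Of 6 tested receptors 3 were higher in colon LP than in spleen and 0 lower. Tgfbr2, the type II receptor, rose by 0.97 ± 0.14, against the -0.64 of its partner Tgfbr1. In the epithelium Tgfbr2 fell by 0.68 ± 0.15 (adjusted p = 0.00922). Tgfbr3, a coreceptor, rose in colon LP by 1.16 ± 0.26, and Acvr2a, an activin receptor, by 3.93 ± 0.57 from 0.298 to 0.558 CPM in spleen. Of 5 tested SMAD genes 2 were higher in colon LP and 0 lower. Smad4, the common partner, rose by 0.80 ± 0.20, and Smad5, of the BMP branch, by 0.85 ± 0.22. In the epithelium 3 fell: Smad3 by 1.53 ± 0.41, Smad4 by 0.89 ± 0.23 and Smad5 by 1.25 ± 0.24. Smad2, which carries the signal beside Smad3, differed by 0.11 ± 0.13 there and did not pass.

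Of 12 tested modifiers 3 were higher and 1 lower in colon LP than in spleen. Sik1, a kinase that works with Smad7 on the receptor, rose by 4.24 ± 0.39 and fell by 2.85 ± 0.37 in the epithelium. Usp4, a deubiquitinase, fell by 0.69 ± 0.12 and rose in the epithelium by 0.51 ± 0.14. Bambi, a decoy receptor named after its values were seen, measured 0 to 0.593 CPM in spleen, 5.73 to 8.68 CPM in colon LP and 1.38 and 1.57 CPM in epithelium. In the epithelium 3 modifiers fell and 2 rose. Strap, which binds the receptors and Smad7, was among those that fell, by 0.62 ± 0.19, and it did not pass in colon LP against spleen (0.38 ± 0.17). Of 9 tested targets 4 were higher and 1 lower in colon LP. Junb, an AP-1 factor, rose by 3.10 ± 0.22, and Cdkn1a, a cell cycle inhibitor, by 3.37 ± 0.30. Itgae measured 4.02 to 31.8 CPM in spleen, 15.6 to 62.2 CPM in colon LP, 156 and 45.2 CPM in SI LP and 201 and 167 CPM in epithelium, and the epithelial difference of 2.47 did not pass (adjusted p = 0.0563). In the epithelium 2 targets fell, as Cdkn1a fell by 2.23 ± 0.39 and Junb by 0.72 ± 0.23, and 1 rose, Id3, an inhibitor of E proteins named after its values were seen, by 1.06 ± 0.17. Pcsk7, Tgfb3, Bmpr1a, Bmpr2, Smad1, Usp15, Ppm1a, Id2 and Klf10 passed in neither comparison.

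**Figure D3:**
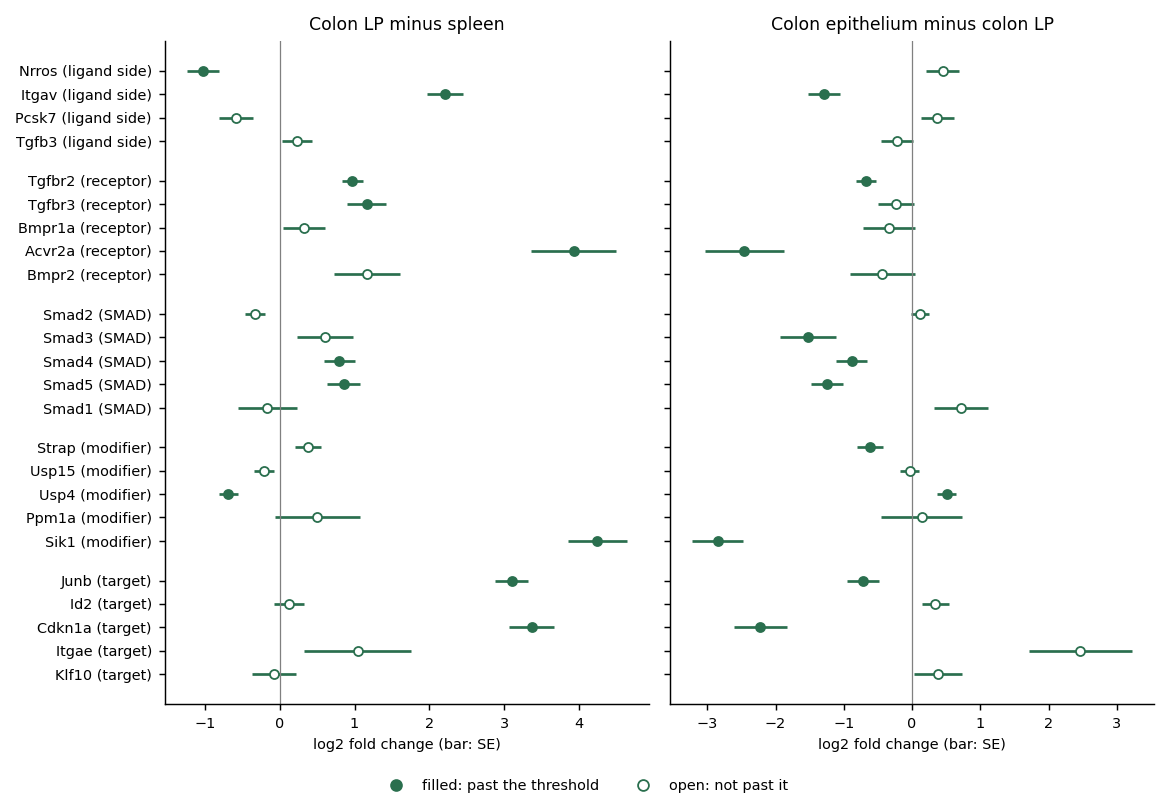
Log2 fold change (with SE) of other TGF-beta pathway genes, up to 5 of each role with the highest mean CPM, in colon LP against spleen (left) and colon epithelium against colon LP (right); filled symbols passed at an adjusted p under 0.05, and Lrrc32, at 0 in spleen and epithelium, is not drawn. Sik1, Cdkn1a and Acvr2a were among the highest on the left and the lowest on the right.

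The KO comparison asked whether the genes change when the transferred cells lack the interleukin-23 receptor. Il23r itself was near 0, with 0.605 to 3.09 CPM (7 to 19 UMIs) in control and 0.314 to 4.20 CPM (3 to 33 UMIs) in KO libraries. These counts do not tell the genotypes apart, which rest on the labels. No gene passed by edgeR in colon LP, in spleen, in the interaction of tissue and genotype, or over all 6 pairs of libraries (0% of 10976 or 11305 genes in each). At an unadjusted p under 0.05 there were 123, 128, 114 and 525 genes, and 0, 1, 1 and 0 members. With the replicate number as a block, or for the 6 pairs a term for each pair, these were 224, 255, 230 and 900 genes. The members were then 0, 1, 1 and 1, and again no gene passed after adjustment. DESeq2 called 0, 3, 2 and 3 genes. In colon LP the members ran from -0.21 ± 0.26 (Ski) to 0.32 ± 0.26 (Tgif2), with 8 of 9 on the higher side, a median of 0.16 and 0.0044 for all genes. In spleen they ran from -0.54 (Furin) to 0.41 ± 0.30 (Tgif1), with 3 of 9 higher.

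Furin, the member with the smallest p-values, was lower in both spleen pairs, 44.3 CPM in KO against 63.3 CPM in control and 40.9 against 57.9 CPM (-0.54 ± 0.21, unadjusted p = 0.0318, adjusted p = 1). In colon LP it was higher in both pairs, 739 against 689.5 CPM and 854 against 638 CPM (0.28 ± 0.20). The difference of these effects was 0.81 ± 0.29 (unadjusted p = 0.0225, adjusted p = 1). With the block the unadjusted p of edgeR was 0.0130 in spleen and 0.00731 for the difference, and the adjusted p stayed at 1. In SI LP Furin was 1.49 times as high in KO (95% interval 1.41 to 1.58, counting error only), and in epithelium 0.936 times (0.897 to 0.977). Ski was lower in KO in 6 of 6 pairs, by 0.10 to 0.42 on the log2 scale, with a fitted difference of -0.19 ± 0.12 (adjusted p = 1). With a term for each pair of libraries edgeR gave Ski -0.20 ± 0.08 (unadjusted p = 0.0270, adjusted p = 0.580). How many of all genes moved the same way in all 6 pairs was not counted.

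The other members were higher in KO in 2 to 4 of 6 pairs. Tgif1 was higher in both spleen pairs (0.55 and 0.34 on the log2 scale) and in colon LP was lower in replicate 1 (-0.33) and higher in replicate 2 (0.49). In colon LP replicate 2, 8 of 9 members were higher in KO, and in replicate 1 Furin alone was higher. The colon LP KO 2 library also had the highest summed early response level, 16245 CPM against 4997 CPM in its control, where the replicate 1 pair measured 9320 and 9183 CPM. Without that library the colon LP difference of Tgif2 was -0.02 and that of Ski 0.07. In cells with no UMI of the 8 early response genes Tgif2 gave -0.62 in colon LP and -0.35 over the 6 pairs, against 0.22 in all CD3-positive cells. The SI LP and epithelial ratios rest on 1 library a side and have no replicate check.

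**Figure D4:**
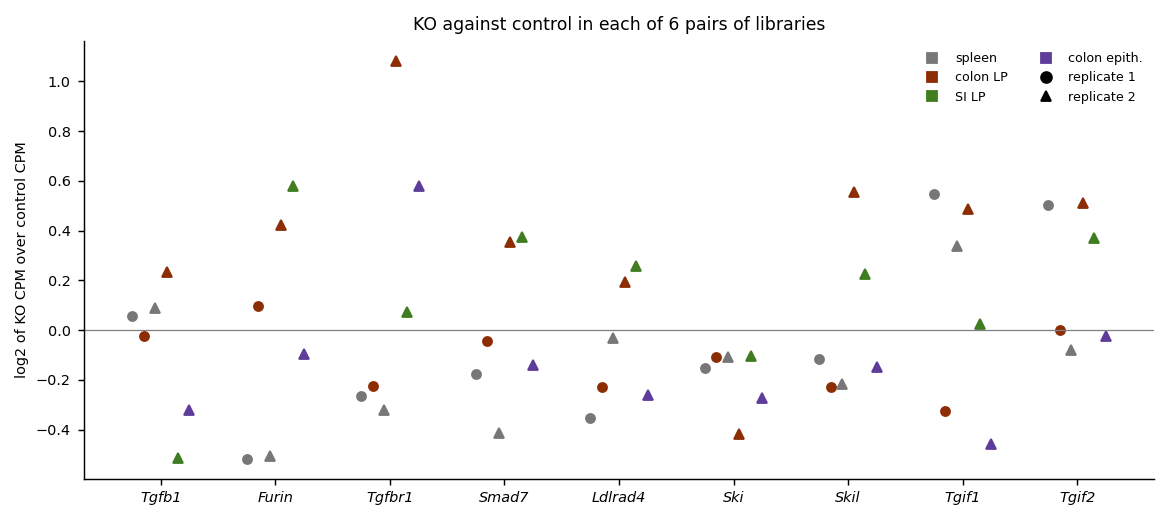
Log2 ratio of KO to control CPM in each of the 6 pairs of libraries, by gene, tissue (colour) and replicate (shape). Ski lay below 0 in all 6 pairs, and Furin lay below 0 in both spleen pairs and above 0 in both colon LP pairs.

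Within the gut, cells with and without an Itgae UMI were compared inside each of the 8 gut libraries, which holds the library fixed. Cells with Itgae made up 4.75% to 15.003% of CD3-positive cells in colon LP, 28.6% and 8.49% in SI LP, and 37.7% and 29.9% in epithelium. They were deeper in all 8 libraries, with medians of 2294 to 6140.5 UMIs against 2268.5 to 4409 UMIs. Of 9145 genes 799 passed by edgeR (8.74%), 4.12% higher and 4.61% lower with Itgae. Of the 9 members 1 rose and 2 fell, with a median of -0.16 against -0.0069 for all genes. How many of all genes moved the same way in all 8 libraries was not counted.

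Furin was lower in Itgae-positive cells in 8 of 8 libraries. It measured 673, 591, 447 and 632 CPM with Itgae and 691, 752, 680 and 868 CPM without in colon LP (control 1, KO 1, control 2, KO 2). In SI LP it measured 482 and 707 CPM against 694 and 955 CPM, and in epithelium 293 and 263 CPM against 509 and 459 CPM. The gap was smallest in colon LP control 1 and largest in the epithelium. Furin fell by 0.55 ± 0.07 on the log2 scale (adjusted p = 0.000533), and by 0.54 with cells randomly thinned to 1500 UMIs. With the library term left out of the fit it gave -0.49 and did not pass (adjusted p = 0.9998), nor did any of the 9145 genes.

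Ldlrad4 went the other way and was higher with Itgae in 8 of 8 libraries, by 0.10 to 0.60 on the log2 scale. It measured 49.8 to 82.5 CPM with Itgae and 39.1 to 70.4 CPM without (0.33 ± 0.07, adjusted p = 0.000750). In thinned cells the difference was 0.30 and did not pass (adjusted p = 0.268). Tgfb1 fell by 0.16 ± 0.05 (adjusted p = 0.0376). It was higher with Itgae in both replicate 1 libraries (0.15 and 0.13) and lower in all 6 of replicate 2 (-0.46 to -0.15). Its call was lost in thinned cells (-0.09, adjusted p = 0.733), with DESeq2 (0.102) and in 5 of 8 fits that left out a library (adjusted p of 0.0749 to 0.149).

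The other 6 members did not pass, among them Tgif1 (-0.15 ± 0.06, adjusted p = 0.0920) and Tgif2 (-0.25 ± 0.10, 0.139). All 6 of their fitted differences were below 0, from -0.25 to -0.09. With no filter on low counts Tgif1 (-0.20, adjusted p = 0.0153), Tgif2 (-0.31, 0.0376) and Skil (-0.18, 0.0474) passed as lower with Itgae. Without the SI LP KO library Tgif1 (-0.20, adjusted p = 0.0166), Skil (-0.17, 0.0421) and Smad7 (-0.18, 0.0470) passed as lower with Itgae. Smad7 also passed without colon LP control 1 (-0.18, 0.0491) and Tgif2 without colon LP control 2 (-0.40, 0.0286). In thinned cells Skil and Smad7 turned to 0.05 and 0.12, neither of which passed. Of the 17 early response genes 6 passed as lower with Itgae and 0 as higher.

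**Figure D5:**
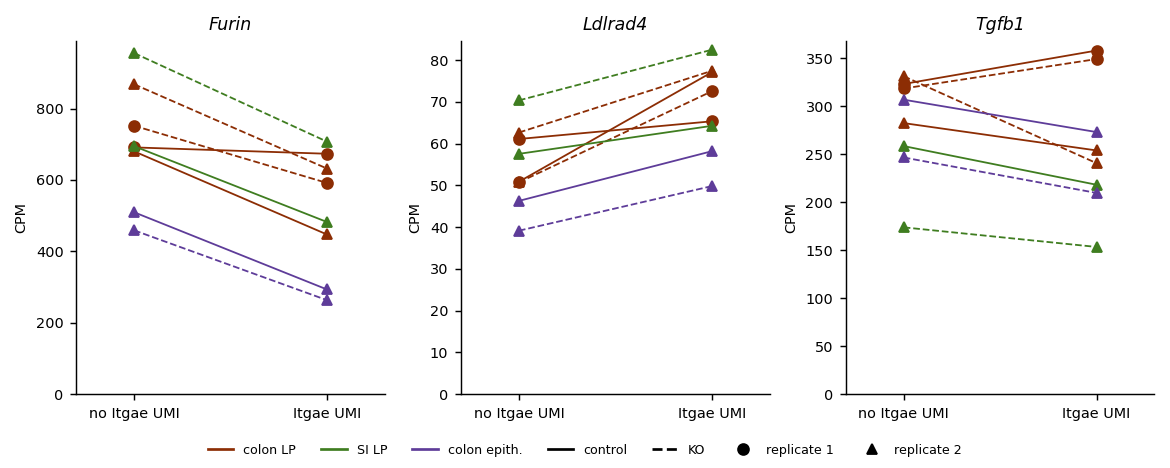
Level (CPM) of Furin, Ldlrad4 and Tgfb1 in CD3-positive cells without and with an Itgae UMI; each line joins the values of 1 of the 8 gut libraries. Furin was lower with Itgae in all 8 libraries, Ldlrad4 was higher in all 8, and Tgfb1 was lower in the 6 libraries of replicate 2.

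Cells with no Cd3d, Cd3e or Cd3g UMI (13 to 533 per library, 25956 to 889541 UMIs) were measured as a background for cells of other kinds and for free RNA. Their median depth was 1346 to 5739 UMIs by library, and they may include T cells too shallow to show CD3. In them the levels of Furin, Tgif1 and Skil were also higher in the lamina propria than in spleen. Furin measured 55.2 to 122 CPM in spleen, 248 to 860 CPM in colon LP and 972 and 708 CPM in SI LP. Tgif1 measured 20.1 to 39.0 CPM, 218 to 359.6 CPM, and 425 and 387 CPM in the same order. Skil measured 20.5 to 39.0 CPM, 139 to 244 CPM, and 364 and 324 CPM. In the epithelial KO library CD3-zero cells gave 71.1 CPM of Furin (95% interval 40.6 to 115, counting error only) against 392 CPM in CD3-positive cells. For Tgif1 they gave 26.7 CPM, on 6 UMIs (9.78 to 58.0), against 26.6 CPM. Ldlrad4 in the SI LP KO library measured 25.9 CPM in CD3-zero cells (16.4 to 38.8) and 71.5 CPM in CD3-positive cells, and Tgif2 20.2 CPM (11.99 to 32.0) and 53.6 CPM. Tgfbr1 was higher in CD3-zero than in CD3-positive cells in every spleen, colon LP and SI LP library, on 3 to 31 UMIs. It measured 21.2 to 54.6 against 13.2 to 19.6 CPM in spleen and 12.4 to 31.2 against 4.50 to 10.9 CPM in colon LP. In SI LP it measured 60.7 and 34.8 against 6.98 and 7.36 CPM, and in epithelium 0 and 22.2 against 16.8 and 25.1 CPM. The part of free RNA and of other cells in the CD3-positive levels, those of Tgfbr1 among them, was not tested.

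Profiles over the 12 libraries differed among the members. Likeness was measured as the root mean square difference of centred log2(CPM + 1) profiles, where a lower value means more alike, among 6527 other genes with a mean of at least 10 CPM. Skil and Ldlrad4 were the nearest members to each other (0.30), Furin was nearest to Skil (0.31), and Tgif1 and Tgif2 were nearest to each other (0.60). Outside the set, Ldlrad4 was nearest to Pmepa1 (0.32), its structural relative, and to Junb (0.33), and Skil to Smim3 (0.31) and Junb (0.36). Furin was nearest to Mxd1 (0.34) and Neurl3 (0.36). Tgif1 was nearest to Zc3h12a (0.29), an RNase that limits inflammatory transcripts, and Rnf157 (0.32), and Tgif2 to Irf4 (0.18), a factor of antigen receptor activation, and Lin54 (0.26). Smad7 was nearest to Pofut2 (0.18) and Btg2 (0.19), Tgfb1 to Atp2b4 (0.14), Ski to Tab2 (0.14) and Tgfbr1 to Acat2 (0.25). All profiles share the same 12 libraries, so these values are a description with no test.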

How the data were processed

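The deposited matrix holds UMI counts per gene and cell as whole numbers, with all 12 libraries in 1 table, and a deposited cell table names each cell's library. Per the labels' protocols these were 10x Chromium 3′ v2 libraries, and Cell Ranger 2.0.2 and build mm10 are named in the submitters' processing notes. How cells, genes or doublets were filtered is not stated there, and no doublet caller was run here. The members and gene lists were chosen with earlier results of these data known.

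Counts were summed over the CD3-positive cells of each library. CPM scales these sums to the library's total UMIs with no TMM factor, and intervals cover counting error only. Contrasts used edgeR 4.0.16 in R 4.3.3 (filterByExpr, TMM factors, robust quasi-likelihood test, Benjamini-Hochberg adjustment over all genes kept, threshold 0.05), tested on simulated data. TMM factors were 0.844 to 1.133 in the fit over 12 libraries and 0.839 to 1.132 in the fit over 8. SE is the log2 difference over the root of F. KO contrasts and colon LP against spleen used the 8 spleen and colon LP libraries, the others all 12, and the Itgae split used each gut library's 2 sums with the library as a block (the alternative with no replicate block leaves this library term out). DESeq2 1.42.0, filters, CD3 cuts, the replicate block and left-out libraries were alternatives, and cells with no UMI of 8 early response genes were an alternative chosen after seeing the data. Spleen and colon LP libraries with the same replicate number deviated together in every pair of groups (correlations 0.404 to 0.655). The main KO and tissue fits still had no replicate term, which was an alternative only. In the deposited cell table the batch number of every cell equalled its replicate number, so SI LP and epithelium were batch 2 alone.

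The named genes are the 9 members, the 5 genes of each pathway role with the highest mean CPM, and the nearest profiles. Bambi, Pmepa1 and Id3 were added to the pathway genes after their values were seen. Gene positions follow the mm10 annotation. Start regions come from RefSeq and cover 6 of 9 members. Windows on chromosome 18, where Smad7 and Ldlrad4 lie, were left out, and no window was found for Skil.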

Additional observations from a re-analysis of the deposited data

Results flagged for a closer look

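For Skil, the difference between cells with and without an Itgae UMI in the SI LP KO library stood apart from the other 7 gut libraries. It was 0.39 on the log2 scale there, against -0.31 to -0.01 in the others, and its gap to the nearest library exceeded Dixon's 95% critical value for 8 samples. That value rests on 69 Itgae-positive cells with 49 Skil UMIs. The same check was made on 9 genes, and chance flags about 1 in 20 groups.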

How the results depend on the processing

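Of 608 alternative fold changes of the members, 536 were kept, 40 lost a call, 21 gained one and 11 changed sign. Kept means the same direction and side of the threshold. For colon LP against spleen it means the same direction and a value near the main one, by a margin set from its SE. In contrasts where no member passed, only the lowest and highest members and those at an unadjusted p under 0.05 by edgeR were counted. The cause of the shifts below was not tested.

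Counts of genes called were 2188 for epithelium against colon LP (1761 with the replicate block, 1360 on replicate 2 libraries alone, 1164 in cells without early response UMIs, 230 to 2843 with 1 library left out) and 3262 for colon LP against spleen (1869 in cells without early response UMIs, 1793 to 3596 with 1 library left out). SI LP against colon LP called 1 gene (103 with DESeq2, 35 with no filter, 5 over all cells, 3 in cells without early response UMIs, 2 with 1 or more CD3 UMIs, 0 with the replicate block, 0 to 63 with 1 library left out). The Itgae split called 799 (507 with DESeq2, 141 in thinned cells, 0 with no replicate block, 602 to 869 with 1 library left out). KO contrasts called 0. Colon LP gave 83 with no filter. Spleen gave 3 with DESeq2 and 70 with no filter, and the interaction 2 and 68. The 6 pairs gave 3, 6, and 5 in cells without early response UMIs. With 1 library left out, the first 3 of these gave 0 to 1 and the 6 pairs 0 to 0.

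Among members, Ski in the epithelium turned to 0.13 on replicate 2 libraries and 0.063 with the replicate block. In colon LP KO, without KO 2, Ski gave 0.073 (range -0.54 to 0.073) and Tgif2 -0.019 (-0.019 to 0.60), and Tgif2 gave -0.62 in colon LP and -0.35 over the 6 pairs in cells without early response UMIs. The Tgif1 interaction gave 0.046 without colon LP KO 1 and 0.03 without spleen control 1 (-0.62 to 0.046). In the Itgae split, thinned cells gave Skil 0.052 and Smad7 0.12, and Tgfbr1 gave 0.048 with no replicate block. Mean levels also shifted when CPM was divided by the TMM factors. In colon LP, Tgfb1 then gave 346 CPM (312 without), Smad7 99.6 (90.0) and Ldlrad4 64.3 (58.3). In epithelium, Furin gave 367 CPM (406 without), Skil 94.7 (104.7), Smad7 66.4 (73.4) and Tgif2 7.36 (8.14). In spleen, Tgfb1 gave 168 CPM (177 without).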
